A study of Mus musculus with 4 samples.

Results

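Transcripts of antibody-producing cells were followed in nuclei of the mouse kidney cortex through 6 genes, Igkc, Igha, Ighm, Jchain, Mzb1 and Iglc2, of 25636 genes listed. The genes were chosen by name, with earlier results of these data known, and their unique molecular identifiers (UMIs, 1 per captured RNA molecule) were counted over all barcodes of each library, then split between barcodes that carried at least 2 of the 6 genes, here called co-detecting barcodes, and all others. Female mice of 2 strains were used at 2 ages, and each of the 4 groups was 1 droplet-based 3' library: MRL/lpr at 6 weeks, C57BL/6 at 6 weeks, MRL/lpr at 10 weeks and C57BL/6 at 10 weeks. The lpr mutation of MRL/lpr mice disables Fas, a receptor for cell death signals, and the strain makes autoantibodies and develops a nephritis like that of lupus, and C57BL/6 is a common laboratory strain. Since no group was MRL with normal Fas, the mutation, other strain differences and disease cannot be told apart, and it is not given whether a library held 1 animal or several. With 1 library per group there was no replicate check and no test between groups. All values describe these libraries, and all intervals are exact 95% intervals for counting error only.

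Plasma cells are end-stage B lymphocytes that turn most of their protein synthesis to 1 antibody, a pair of identical heavy chains and a pair of identical light chains. The class of the antibody is set by the constant region of the heavy chain (Ighm for IgM, Igha for IgA, the Ighg genes for IgG), and the light chain is either kappa, with the constant region Igkc, or lambda, with an Iglc constant region. Jchain links IgA and IgM units into polymers, Mzb1 is a chaperone of the endoplasmic reticulum that helps antibody assembly, and the transcription factor Xbp1 expands the secretory machinery. In lupus nephritis, plasma cells are known to lodge in the kidney as well as in lymphoid organs and bone marrow.

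The library type decides which part of these transcripts is seen. Priming on the poly-A tail captures the 3' end, where the constant region lies, and the variable segment that differs between clones is at the other end. The 348 variable segment genes listed held 3 UMIs in each 6 week library, and at 10 weeks 12 in MRL/lpr and 2 in C57BL/6, so clones could not be told apart. The last 150 coding bases of 5 constant regions are shown, 5' to 3', because they decide which counts can be told apart by gene. Sequences come from GENCODE mouse release M21 transcripts on GRCm38, each window lies within 1 exon and ends with the stop codon, and the build behind the count matrices is not given in the sources used here. Igkc, the gene with the most UMIs of the 6, has a coding region of 1 exon on the plus strand, and its window at chr6:70726608-70726757 has the stop codon in capitals.
Igkc: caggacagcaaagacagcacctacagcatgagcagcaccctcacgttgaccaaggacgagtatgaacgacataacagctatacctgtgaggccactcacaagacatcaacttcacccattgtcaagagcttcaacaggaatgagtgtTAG
Iglc2 and Iglc3, both lambda constant regions on the minus strand, are near-identical copies, with windows at chr16:19198536-19198685 and chr16:19065365-19065514 and the 4 differing bases in capitals.
Iglc2: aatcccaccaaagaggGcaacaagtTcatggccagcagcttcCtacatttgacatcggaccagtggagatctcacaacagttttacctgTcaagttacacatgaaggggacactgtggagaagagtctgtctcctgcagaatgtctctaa
Iglc3: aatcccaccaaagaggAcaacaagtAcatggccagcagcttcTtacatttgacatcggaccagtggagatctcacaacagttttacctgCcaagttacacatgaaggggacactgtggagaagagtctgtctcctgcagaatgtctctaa
These windows are 97.3% identical, and over the whole coding regions the pair is 96.2% identical, so UMIs of Iglc2 and Iglc3 may be split or lost between the copies. Igkc and Iglc2 share 54.0% of aligned bases, so kappa and lambda are readily separated. The IgG heavy chain genes Ighg2b and Ighg2c, also on the minus strand, are further apart, with windows at chr12:113306389-113306538 and chr12:113287389-113287538 and 39 differing bases in capitals.
Ighg2b: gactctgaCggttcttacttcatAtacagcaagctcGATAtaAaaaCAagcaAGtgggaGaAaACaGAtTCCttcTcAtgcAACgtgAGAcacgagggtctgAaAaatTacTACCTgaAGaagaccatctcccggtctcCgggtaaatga
Ighg2c: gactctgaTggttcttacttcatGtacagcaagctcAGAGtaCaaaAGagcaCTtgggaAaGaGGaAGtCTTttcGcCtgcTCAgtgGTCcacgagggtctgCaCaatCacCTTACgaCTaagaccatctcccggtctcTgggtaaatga
The pair is 74% identical here and 85.6% over the coding regions. Ighg2a is not in the gene list, and whether its transcripts were counted elsewhere in either strain was not tested.

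The libraries held 9365, 10182, 9889 and 9638 barcodes and 6466973 to 7660682 UMIs, with a median of 589 to 714 UMIs per barcode. Proximal tubule-like nuclei held 47.5% to 60.9% of the UMIs of each library, and this epithelium is the main tissue of the kidney cortex. Of 38318 distinct barcode sequences 748 were seen in 2 or more libraries, and of the co-detecting barcodes 1 of C57BL/6 6 weeks and 1 of C57BL/6 10 weeks were among them. Barcodes with fewer than 200 genes numbered 0, 171, 398 and 17 in the order above, which is used throughout.

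The kappa and IgA transcripts were highest in the MRL/lpr library at 10 weeks. Igkc had 37 (MRL/lpr) and 22 (C57BL/6) UMIs at 6 weeks and 700 (MRL/lpr) and 73 (C57BL/6) at 10 weeks, or 4.83, 3.21, 108 and 10.8 counts per 1000000 UMIs of the library (CPM). At 10 weeks the MRL/lpr level was 10.0 times that of C57BL/6 (interval 7.86 to 12.9), and within MRL/lpr it was 22.4 times the level at 6 weeks (16.1 to 32.1). At 6 weeks the strain ratio was 1.50 (0.864 to 2.68), whose interval spans 1. It depended on the measure, at 1.83 (1.05 to 3.25) in UMIs per barcode and 0.766 (0.213 to 2.66) with co-detecting barcodes left out. Igha, the heavy chain of IgA, the antibody class typical of mucosal plasma cells, had 5, 3, 258 and 37 UMIs, or 0.653, 0.438, 39.9 and 5.48 CPM. Its strain ratio at 10 weeks was 7.28 (5.15 to 10.6) and its age ratio in MRL/lpr 61.1 (25.9 to 190), with only 5 UMIs behind the younger level. Both genes were thus low in the 6 week libraries of both strains and stood highest in 1 library.

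Jchain was highest in the same library. It had 20, 11, 101 and 16 UMIs, or 2.61, 1.61, 15.6 and 2.37 CPM. The strain ratio at 10 weeks was 6.59 (3.87 to 11.97), against 1.63 (0.742 to 3.76) at 6 weeks, and the age ratio in MRL/lpr was 5.98 (3.68 to 10.2). Ighm, the heavy chain of IgM and of the receptor of naive B cells, did not follow the pattern. It had 18, 24, 16 and 22 UMIs, and its ratios were 0.670 (0.343 to 1.29) between strains at 6 weeks, 0.760 (0.373 to 1.51) at 10 weeks and 1.05 (0.502 to 2.19) with age in MRL/lpr. The 4 libraries overlapped within counting error for Ighm. In sums over a library, fewer cells of a type and less RNA per cell cannot be told apart.

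The remaining pair was scarce. Iglc2, a lambda light chain, had 5, 3, 18 and 0 UMIs, so the MRL/lpr level at 10 weeks was at least 6.27 times that of C57BL/6 (against the 3 UMIs that a count of 0 allows) and 4.26 times that at 6 weeks (1.53 to 14.7). Mzb1 had 0, 2, 1 and 2 UMIs, too few for any ratio. Its near absence stands beside the high Igkc of MRL/lpr 10 weeks, where a single co-detecting barcode held the 1 Mzb1 UMI. Igkc, Igha, Ighm and Jchain met the minimum of 50 UMIs over the 4 libraries, and Mzb1 and Iglc2 did not. Igha and Jchain met it only through MRL/lpr 10 weeks, the library where they were highest, so the counts of members that follow are descriptions.

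**Figure D1:**
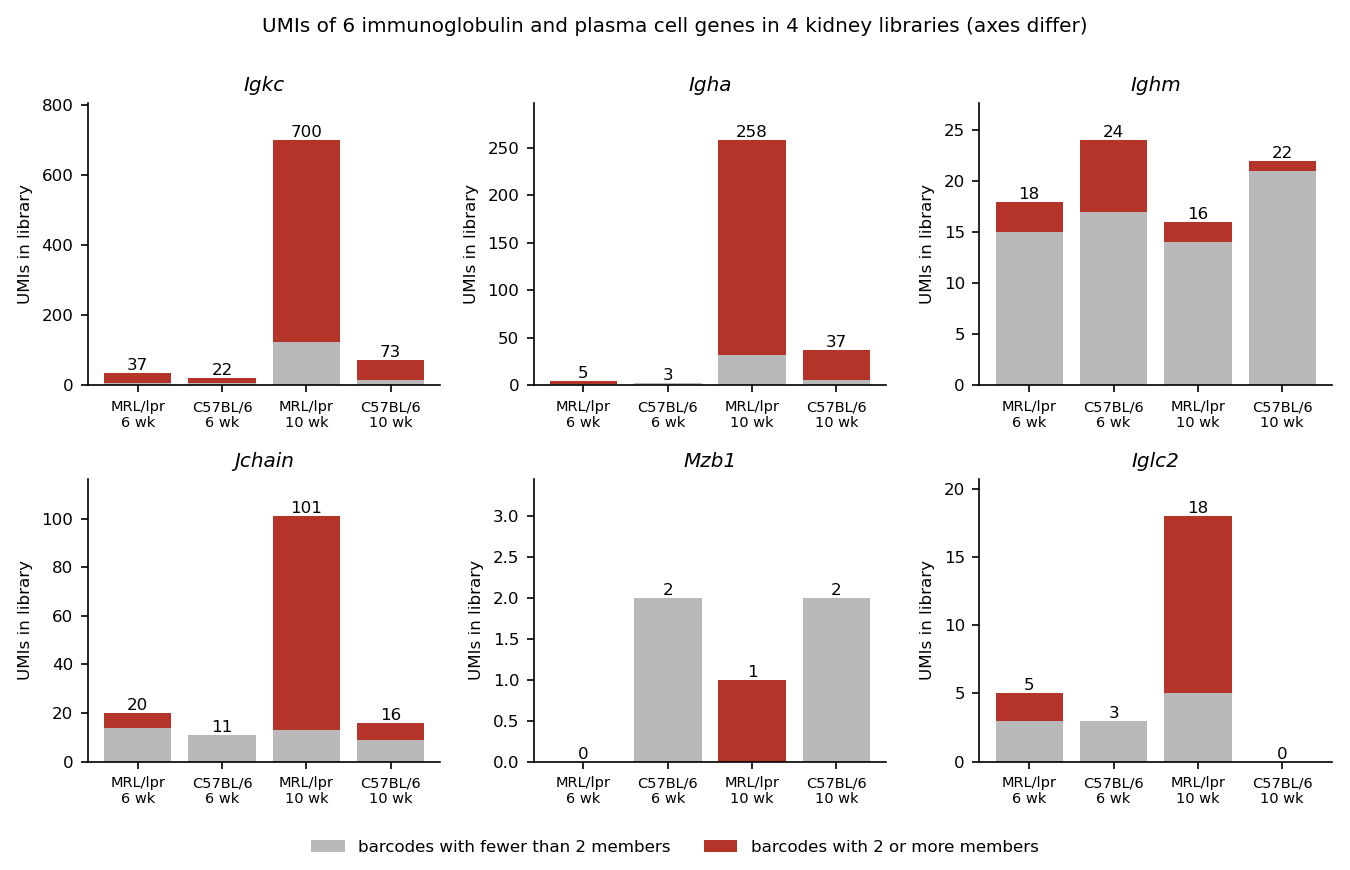
UMIs of the 6 genes in each library, with the bar height on a linear axis that differs between panels and the total above each bar. Red is the part in barcodes with 2 or more of the 6 genes and grey the part in all other barcodes. Igkc, Igha and Jchain stand highest in MRL/lpr 10 weeks, with 700, 258 and 101 UMIs, mostly red, and Ighm is between 16 and 24 in all libraries, mostly grey.

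As a description only, Igkc, Igha and Jchain were set against the whole table. At 10 weeks 3 of the 4 genes over the minimum (Igkc, Igha and Jchain) were at least 2-fold higher in MRL/lpr, as were 5.74% of 14066 genes (4.02% were 2-fold lower), and the same 3 were at least 5-fold higher, as were 1.24%. None of the 4 was 2-fold higher in either strain at 6 weeks, where 3.79% of genes were higher in MRL/lpr and 8.22% in C57BL/6, so none was 2-fold higher in MRL/lpr at both ages, as 2.23% of genes were. Within MRL/lpr the 3 genes were at least 5-fold higher in the older library, as were 0.185% of genes, and 3.48% of genes were at least 2-fold higher and 1.27% 2-fold lower at 10 weeks. By the size of this age ratio Igha ranked 1, Igkc 3 and Jchain 14 of 14066 genes, and Ighm 6770. These genes were chosen on such values, and Igha and Jchain passed the minimum only through the MRL/lpr 10 week library. Nothing is thus read from the counts or the ranks, and the age and strain ratios share that library.

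C57BL/6 mice also had more of both transcripts at 10 than at 6 weeks, but 1 barcode carried that difference. Igkc was 3.36 times higher at 10 weeks (2.06 to 5.69) and Igha 12.5 times (3.96 to 63.4), where 1.7% of genes were at least 2-fold higher and 3.39% 2-fold lower. In the 10 week library a single barcode held 53 of the 73 Igkc UMIs and 28 of the 37 Igha UMIs, with 7 Jchain and 4 lambda UMIs. It had 4360 UMIs, 74 of them from proximal tubule markers, and was marked as a doublet, a droplet with more than 1 nucleus. With the richest barcode of each library left out, the age ratio in C57BL/6 was 1.13 (0.566 to 2.26) for Igkc and 3.04 (0.759 to 17.5) for Igha. The strain ratio at 10 weeks then became 28.4 (18.2 to 46.9) for Igkc and 21.2 (10.9 to 47.2) for Igha. In MRL/lpr 6 weeks, likewise, 1 barcode held 21 of 37 Igkc UMIs, and without the richest barcodes the Igkc strain ratio at 6 weeks was 0.795 (0.379 to 1.65).

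Most of the transcripts lay in few barcodes. Co-detecting barcodes numbered 4 in each 6 week library, 24 in MRL/lpr at 10 weeks and 3 in C57BL/6 at 10 weeks, or 0.0427%, 0.0393%, 0.243% and 0.0311% of barcodes. The share in MRL/lpr at 10 weeks was 7.80 times that of C57BL/6 (2.37 to 40.5) and 5.68 times that of MRL/lpr at 6 weeks (1.95 to 22.5), and the strains were alike in number at 6 weeks (ratio 1.09, 0.203 to 5.84). Barcodes with 3 or more of the 6 genes numbered 0, 0, 13 and 1. Because depth sets how many genes a barcode can show, each barcode was also thinned to 300 UMIs, which left out 0, 1419, 1124 and 867 shallower barcodes. After thinning, 2, 2, 10 and 2 barcodes remained co-detecting.

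The share of the 6 genes' UMIs that these barcodes held also differed. At 6 weeks they held 45 of 85 UMIs in MRL/lpr (52.9%) and 22 of 65 in C57BL/6 (33.8%), and at 10 weeks 905 of 1094 (82.7%) and 96 of 150 (64%). In the last library the share was 12.9% without the doublet-marked barcode. Just inside the limit of 2 genes stood 7 barcodes of MRL/lpr 10 weeks with 1 UMI of each of 2 genes, and just outside stood 171 barcodes with 1 gene, the highest of which had 5 Igkc UMIs. The limit of 2 genes thus takes in barcodes with as little of these transcripts as those outside it, and the description that follows turns on barcodes with at least 10 UMIs of the 6 genes, a limit chosen after the values were seen.

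In MRL/lpr 10 weeks 13 barcodes had at least 10 such UMIs, against 2, 0 and 1 in MRL/lpr 6 weeks, C57BL/6 6 weeks and C57BL/6 10 weeks. One of the 13, with 24319 UMIs, was marked as a doublet and is left aside. The other 12 held 857 UMIs of the 6 genes, 18 to 249 each, and the next barcode below the limit held 9. They were small, with 185 to 1675 UMIs in all (median 427), and 5 of them had fewer than 200 genes. The 6 genes took 2.46% to 79.8% of a barcode's UMIs, with a median of 20.5%. The richest barcode had 156 Igkc, 75 Igha and 18 Jchain UMIs among 312 UMIs and only 59 genes in all. With the barcodes under 200 genes or over 10% mitochondrial UMIs removed, as is common practice, the Igkc strain ratio at 10 weeks was 5.85 (4.55 to 7.61), that of Igha 4.11 (2.85 to 6.07) and that of Jchain 3.43 (1.93 to 6.44).

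The 12 barcodes fell into 2 kinds by heavy chain. In 8 of them Igha led, with 6 to 75 Igha UMIs each and 216 in all, beside 394 Igkc and 64 Jchain UMIs, or 54.8 Igha UMIs per 100 Igkc. In the other 4 an IgG heavy chain led, with 2 to 10 IgG UMIs each and 22 in all, beside 152 Igkc and 20 Jchain UMIs, and Igha was at 0 in all 4. IgG UMIs also appeared in 3 of the 8 Igha-led barcodes, 7 in all. Every one of the 12 had Igkc and Jchain, and Ighm was at 0 in all 12. A barcode had to carry 2 of the 6 genes, and the IgG genes are not among them. Barcodes with only Igkc and IgG could thus not enter, so the presence of Jchain and the split of 8 to 4 partly follow from the rule. Lambda light chains were seen in 5 barcodes with 11 UMIs. Each barcode thus showed mainly 1 heavy chain class, and Igkc UMIs outnumbered lambda UMIs in all 12.

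**Figure D2:**
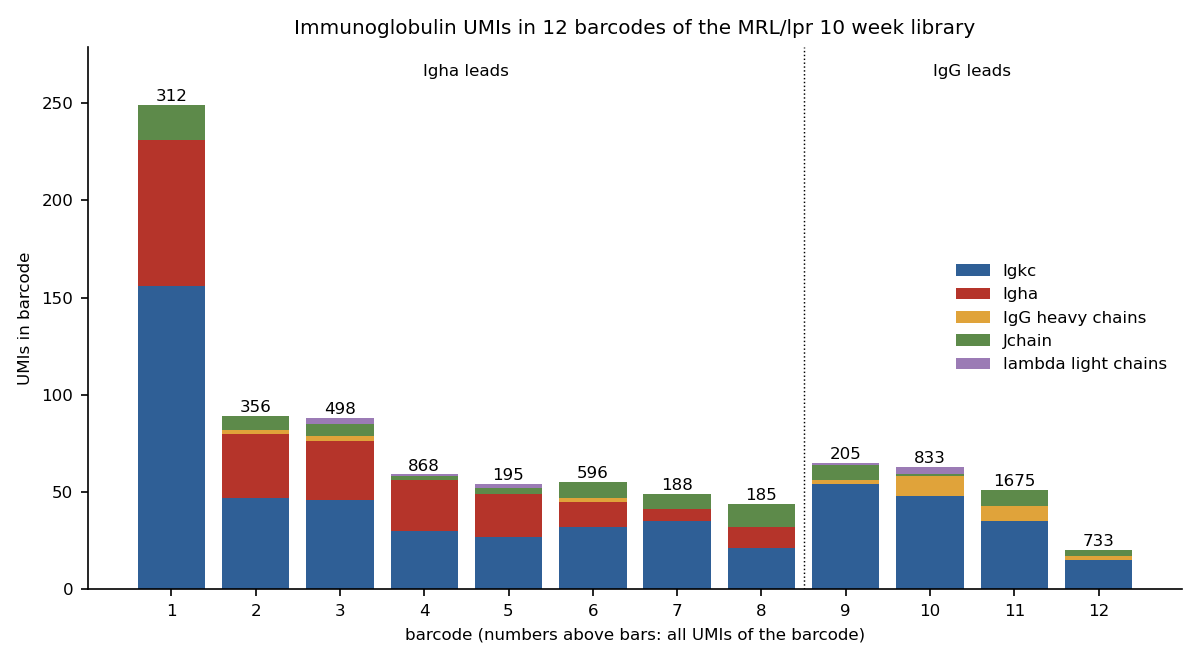
UMIs of kappa, IgA, IgG, J chain and lambda transcripts in the 12 barcodes of MRL/lpr 10 weeks with at least 10 UMIs of the 6 genes and no doublet mark, each bar 1 barcode and the number above it all UMIs of that barcode. Igha leads in 8 barcodes and is absent from the 4 in which IgG leads, and the first bar, with 249 UMIs of the 6 genes among 312, stands far above the others.

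All but 1 of the IgG heavy chain UMIs were in the MRL/lpr libraries. Ighg2b had 4, 0, 40 and 0 UMIs, and 28 of the 40 lay in 10 co-detecting barcodes. Ighg2c had 2, 1, 9 and 0 UMIs. Ighg3, the IgG class often made without T cell help, had 0, 0, 12 and 0 UMIs, and none of the 12 lay in a co-detecting barcode: they were in 9 barcodes with at most 3 each. Ighg1 had 3 UMIs, all in MRL/lpr 10 weeks and in different barcodes. Ighd, which marks naive B cells, had 0, 9, 2 and 0 UMIs, so it was highest in C57BL/6 6 weeks. A count of 0 in a library allows up to 3 UMIs, and strain differences in the sequence of the heavy chain locus may change what is counted, which was not tested.

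The other genes of the 12 barcodes were compared with the 9865 MRL/lpr 10 week barcodes that were not co-detecting. These genes were not used to choose the barcodes, CPM was taken over UMIs other than immunoglobulin and the 6 genes, and the 12 barcodes held 5751 such UMIs. The plasma cell regulator and surface gene list had 23 UMIs from 8 of its 13 genes, 14.1 times its level elsewhere (8.93 to 21.3). Xbp1, which drives the secretory program, had 8 UMIs in 5 of the 12 barcodes, 19.2 times its CPM elsewhere (8.25 to 38.2). Eaf2 (10.6, 3.44 to 25.0) and Ell2 (7.03, 1.91 to 18.1), a transcription elongation factor that favours the secreted form of heavy chain RNA, were also above their level elsewhere. Pou2af1, a B lineage coactivator, had 2 UMIs in the 12 barcodes and 1 in all others. Sdc1, the surface marker CD138 of plasma cells, had 1 UMI, as did Irf4, so these defining genes were at the edge of detection. Prdm1, the repressor that ends the B cell program, Cd38, Slamf7, Tnfrsf17 and Tnfrsf13b were at 0. With the 3 UMIs that a count of 0 allows, the ratios of Prdm1, Cd38 and Slamf7 could reach 120, 35.7 and 258.

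As a list, genes of the endoplasmic reticulum were also above their level elsewhere, but many single genes had too few UMIs to tell. The secretory pathway list had 30 UMIs from 10 of 15 genes, 4.97 times its level elsewhere (3.35 to 7.10). Derl3, a channel component that returns misfolded proteins from the endoplasmic reticulum for degradation, had 4 UMIs in 3 of the 12 barcodes against 6 in all others, a ratio of 745 (155 to 3142). Edem1, which sorts misfolded glycoproteins into the same route, had 8 UMIs in 5 barcodes (ratio 31.7, 13.6 to 63.3). Manf, a protein induced by stress of this compartment, had 4 UMIs in 4 barcodes (6.69, 1.82 to 17.2). Hsp90b1, a chaperone of this compartment, had 3 UMIs, and its interval spanned 1 (2.99, 0.615 to 8.75), as did those of Ssr4, Herpud1, Txndc5 and Creld2. Hspa5, the main chaperone of this compartment, was at 0, as were Ssr3, Fkbp11, Sdf2l1 and Edem2. With the 3 UMIs that a count of 0 allows, their ratios could reach 5.14, 10.6, 52.4, 18.8 and 16.0, in that order. These counts of 0 thus do not show that a gene was not raised.

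**Figure D3:**
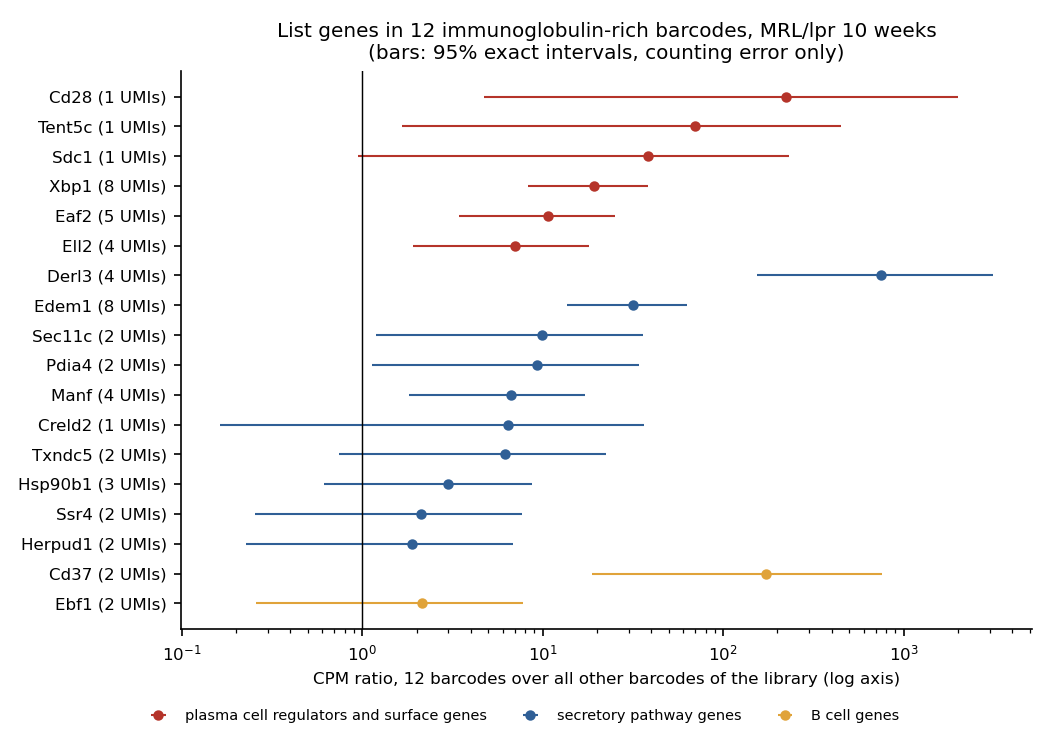
CPM ratio, on a log axis, of list genes in the 12 barcodes over the 9865 other barcodes of MRL/lpr 10 weeks, with points for genes that had a UMI in the 12 and allowed a ratio, and lines for exact 95% intervals of counting error. Xbp1, Edem1 and Derl3 lie well to the right of 1, with ratios of 19.2, 31.7 and 745, and genes with 1 or 2 UMIs have wide intervals.

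Lists for other cell types gave few UMIs in these barcodes, apart from tubule markers. The B cell list had 4 UMIs from 2 of 15 genes, 2.52 times its level elsewhere (0.687 to 6.47), and Cd79a, Ms4a1, Pax5 and Bank1 were at 0. With the 3 UMIs that a count of 0 allows, the ratios of Ms4a1, Pax5 and Bank1 could reach 419, 671 and 373. These counts of 0 thus do not show absence. The 10 macrophage markers had 4 UMIs, a ratio of 2.11 (0.576 to 5.42), and the 10 T and NK markers 1 UMI, a ratio of 2.53 (0.0639 to 14.2). These 3 intervals span 1 and do not bound the ratios closely. Proximal tubule markers had 61 UMIs from 9 of 12 genes, 0.705 times their level elsewhere (0.539 to 0.906). They were uneven: 4 of the 12 barcodes had none, and 1 had 24. Of the 4 IgG-led barcodes 3 carried at least 3 different proximal tubule markers, against 1 of the 8 Igha-led ones, and the IgG-led barcodes were also deeper, with a median of 783 against 334 UMIs. The part of tubule RNA in these values was not tested.

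By the rule for likeness, genes were ranked by their CPM ratio in all 35 co-detecting barcodes over the 39039 others, among the 1958 genes with a UMI in at least 5 co-detecting barcodes of 2 or more libraries. Genes seen in fewer such barcodes were not ranked, and some had higher ratios than most of those below, such as Pou2af1 with 3 UMIs (362, 53.0 to 2137) and Irf4 with 3 (111, 20.3 to 405). Among the ranked genes Slpi, a secreted inhibitor of serine proteases, came first, with a ratio of 393 (213 to 716), followed by Ly6c2 (43.8, 13.7 to 109) and Cd37 (34.9, 11.0 to 85.5), surface proteins of leukocytes. Prkcb, a kinase of B cell receptor signalling, had a ratio of 15.6 (6.67 to 31.3), Ptprc, the leukocyte phosphatase CD45, 6.63 (2.65 to 13.8), and H2-Eb1, an MHC class II chain, 5.50 (3.62 to 8.02). Kcnq5, Dock2, Igsf8 and Arhgap45 complete the first 10, with ratios of 17.0, 7.01, 6.99 and 5.69. Of the 35 barcodes 24 were of MRL/lpr 10 weeks. Of these 24 a single barcode, marked as a doublet, held 24319 of their 39780 UMIs and showed 7421 genes. The other barcodes pooled 4 libraries, so the ratios also carry differences between libraries. In the whole MRL/lpr 10 week library H2-Eb1 was at 127 CPM, the highest of the 4, and Ly6c2 at 1.24 CPM, the lowest. The ranking without the doublet-marked barcode was not tested. In the 12 barcodes alone Slpi had 21 UMIs in 5 barcodes, 11 of them in 1, against 10 UMIs in all others. The likeness of Slpi thus rested on few barcodes of 1 library.

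The co-detecting barcodes with Ighm were described apart. All 4 co-detecting barcodes of C57BL/6 6 weeks combined Igkc with Ighm and held 6 or 7 UMIs of B cell genes, 3 of them held Ighd, and 2 were marked as doublets. Over all libraries 8 co-detecting barcodes had Ighm. One of them was the doublet-marked barcode of 24319 UMIs, which had 3 IgG, 2 Igha and 1 Ighm UMIs and 13 of the 53 UMIs of B cell genes. The other 7 had 40 such UMIs, 13 of them of Ebf1. Among the rest were 6 of Bank1, 3 of Cd79a and 2 of Cd22, which belong to the B cell receptor complex or its signalling, and 2 of Ms4a1 and 1 of Pax5. In the 5 not marked as doublets 27 UMIs remained. The 27 co-detecting barcodes without Ighm, all with Igha or Jchain, had 0 UMIs of Bank1, Cd79a, Cd22, Ms4a1 and Pax5. Over the whole list of 15 B cell genes they had 7 UMIs from 3 genes, or 270 CPM. The list was at 1682 CPM in the 8 barcodes with Ighm and at 308 in barcodes that were not co-detecting.

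Outside co-detecting barcodes, kappa and IgA transcripts remained highest in MRL/lpr 10 weeks. Igkc there had 6, 7, 125 and 16 UMIs in 6, 6, 109 and 11 barcodes, a strain ratio of 8.20 at 10 weeks (4.86 to 14.8). Igha had 2, 3, 32 and 6 UMIs, a ratio of 5.60 (2.31 to 16.4). Jchain had 14, 11, 13 and 9 UMIs, a ratio of 1.52 (0.600 to 4.02), and Ighm 15, 17, 14 and 21, a ratio of 0.700 (0.329 to 1.44). The ratios of Igkc and Igha were thus above 1 outside co-detecting barcodes as well. For Jchain 88 of the 101 UMIs of MRL/lpr 10 weeks lay in co-detecting barcodes, and the interval of its ratio outside spanned 1 and overlapped that of Igha. Carrying these same genes makes a barcode co-detecting, so no contrast between the genes is read from this split. In MRL/lpr 10 weeks there were 25.6 Igha UMIs per 100 Igkc outside (16.8 to 38.0) and 39.3 inside (33.5 to 45.9), and the intervals overlapped.

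The scattered Igkc UMIs were found in nearly all classes of nuclei in MRL/lpr 10 weeks. Classes were named from marker genes, without the antibody genes, and nuclei of tubules do not make antibody. Proximal tubule-like nuclei had 73 Igkc UMIs in 65 of 5181 nuclei, or 18.6 CPM (14.6 to 23.4), against 0.470 CPM in the same class of MRL/lpr at 6 weeks, and 1.19 and 1.87 in C57BL/6 at 6 and 10 weeks. This class held 60.9% of the UMIs of the library, 58.4% of its scattered Igkc and 59.4% of its scattered Igha. Connecting tubule-like nuclei had 22.2 CPM (7.21 to 51.8), principal cell-like 11.7 (2.40 to 34.1), thick ascending limb-like 8.08 (0.978 to 29.2) and endothelium-like 10.6 (1.29 to 38.5), all with intervals that overlapped that of the proximal tubule. Podocyte-like nuclei, the filter cells of the glomerulus, had 0 Igkc UMIs, an upper bound of 38.1 CPM that does not separate them from the rest. The smaller classes held few Igkc UMIs, with 5 in connecting tubule-like, 3 in principal cell-like and 2 in endothelium-like nuclei. Their levels could thus not be told apart from that of the proximal tubule, and a like level per UMI was not shown. The source of the scattered Igkc was not tested, and the proximal tubule level serves below as the comparison for other classes.

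Stromal nuclei had more Igkc per UMI, and whether more of these nuclei had Igkc depended on depth. Fibroblast-like nuclei of MRL/lpr 10 weeks had 7 Igkc UMIs in 5 nuclei, or 82.1 CPM (33.0 to 169), and mural-like nuclei, which surround vessels, had 5 UMIs in 2 nuclei, or 237 CPM (76.9 to 553). Both intervals lay above the proximal tubule interval, but several UMIs shared a nucleus, so these intervals are too narrow. The share of nuclei with Igkc was 2.28% (0.745% to 5.25%) for fibroblast-like and 4% (0.488% to 13.7%) for mural-like nuclei, and both overlapped the 1.25% (0.970% to 1.60%) of proximal tubule-like nuclei. The macrophage-led immune class had 6 UMIs in 3 nuclei, or 37.8 CPM (13.9 to 82.2). Thinned to 300 UMIs, 22 of 5062 proximal tubule-like nuclei had Igkc (0.435%, against 1.28% unthinned), with an interval of 0.273% to 0.657%. At the same depth 4 of 135 fibroblast-like nuclei had it (2.96%, 0.813% to 7.41%) and 1 of 33 mural-like nuclei (3.03%, 0.0767% to 15.8%). The fibroblast-like interval then lay above that of the proximal tubule, on 4 nuclei, and the mural-like interval overlapped it.

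**Figure D4:**
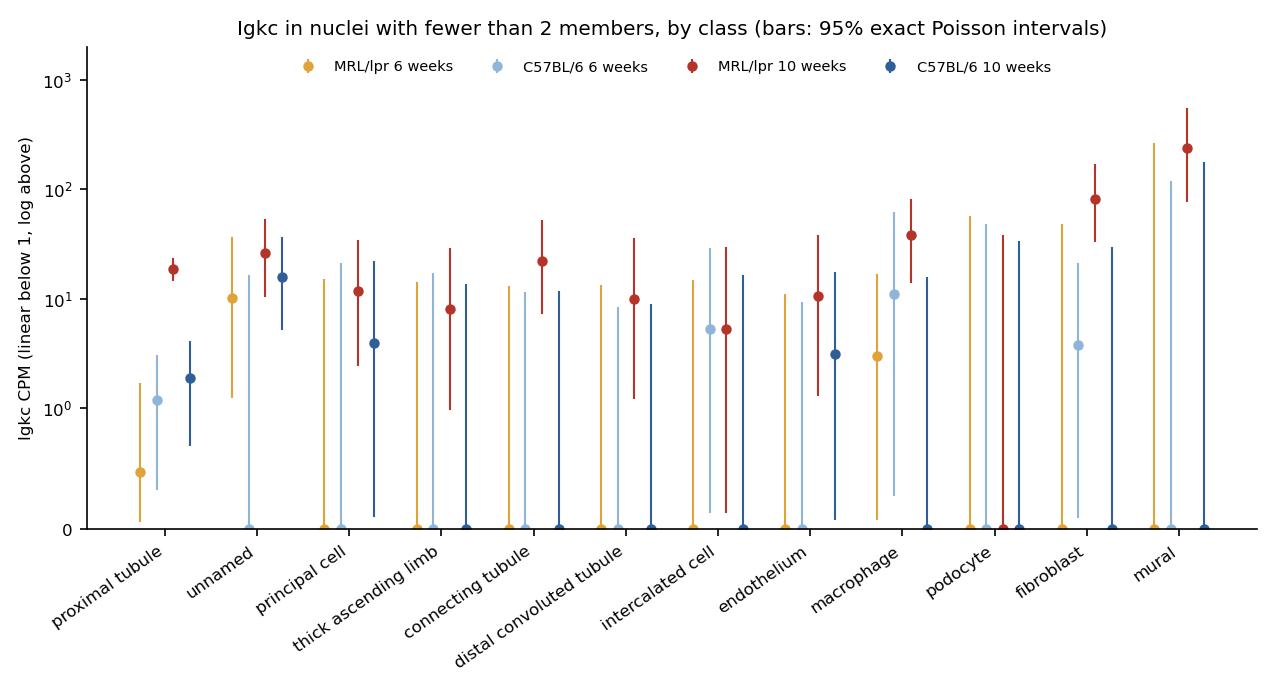
Igkc CPM in nuclei with fewer than 2 of the 6 genes, by class of nucleus (columns) and library (colours), on an axis that is linear below 1 and logarithmic above, with exact 95% Poisson intervals of counting error. Doublets and barcodes removed by the quality filter are not shown. Proximal tubule-like nuclei of MRL/lpr 10 weeks are at 18.6 CPM, above the other 3 libraries at 0.470, 1.19 and 1.87, and fibroblast-like and mural-like nuclei of MRL/lpr 10 weeks are at 82.1 and 237, from 7 and 5 UMIs.

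Scattered Ighm was placed differently. It lay mainly in the macrophage-led immune class, which also held the T and NK markers, with 10, 8, 9 and 17 UMIs, or 66.7%, 47.1%, 64.3% and 81.0% of its scattered UMIs, in a class with 1.33% to 4.37% of the UMIs of each library. In C57BL/6 10 weeks these 17 UMIs were in 16 of 224 nuclei. Of all barcodes with Ighm, 0 of 14, 4 of 20, 1 of 15 and 1 of 21 had 2 or more B cell genes. Ebf1, Ralgps2 and Blnk were not counted here. Among all barcodes of each library the shares with 2 or more were 0.0214%, 0.0491%, 0.0101% and 0.0311%. Scattered Jchain had 10, 9, 7 and 5 UMIs in proximal tubule-like nuclei, or 2.35, 2.68, 1.79 and 1.56 CPM, levels that overlapped between all 4 libraries. These were 71.4%, 81.8%, 53.8% and 55.6% of its scattered UMIs, in a class with 55.6%, 49.1%, 60.9% and 47.5% of the UMIs of each library, so at 10 weeks its placement was close to that of all RNA. Low Jchain in tubule nuclei was seen at both ages and in both strains.

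Genes that serve antibodies and plasma cells in the kidney were read from whole libraries. Of 9 receptor and transport genes 8 met the minimum. None of the 8 was 2-fold apart between strains at 10 weeks, where 5.74% of all genes were higher and 4.02% lower in MRL/lpr. With shares that small, none among 8 genes is close to the background. Their median log2 ratio was 0.16 against 0.00 over all genes. Pigr, the receptor that carries polymeric IgA across epithelia, had 228, 135, 168 and 155 UMIs, and its strain ratio at 10 weeks was 0.18 on the log2 scale. Fcgrt, which protects IgG from breakdown, had 916, 701, 596 and 487 UMIs, with a log2 ratio of 0.35. Igkc and Igha were chosen with their high ratios known, so no contrast between them and these antibody carriers is read.

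Of 11 survival and homing genes 6 met the minimum. In MRL/lpr each of these 6 stood higher in the older library, 2 of them at least 2-fold (3.48% of all genes). Their median log2 ratio was 0.65 against 0.06 over all genes, so the median gene also stood higher. In C57BL/6 4 of the 6 were also higher at 10 weeks and 2 lower, with a median of 0.43 against -0.05 over all genes. None was 2-fold apart, where 1.7% of all genes were higher and 3.39% lower. Vcam1, an adhesion molecule that holds plasma cells in their niche and is also induced in inflamed epithelium and endothelium, had 88, 127, 258 and 102 UMIs, a log2 ratio of 1.40 between strains at 10 weeks and 1.80 with age in MRL/lpr. Cxcl12, a chemokine that retains plasma cells, went the other way between strains, with 217, 424, 190 and 341 UMIs and log2 ratios of -1.13 at 6 and -0.78 at 10 weeks. With age in MRL/lpr Cxcl12 had a log2 ratio of 0.05, no higher than the median gene. Its receptor Cxcr4 had 5, 14, 9 and 22 UMIs, with log2 ratios of -1.65 and -1.23. Cxcr4 was, with Vcam1, at least 2-fold higher with age in MRL/lpr, but on 5 and 9 UMIs. Tnfsf13b, the survival factor BAFF, had 27, 21, 34 and 30 UMIs, a log2 ratio of 0.24 at 10 weeks. Cxcl13, which draws B cells to lymphoid aggregates, had 1, 3, 9 and 0 UMIs, too few to meet the minimum.

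Summed over whole libraries, the secretory and plasma cell lists did not follow Igkc, but other nuclei carried most of their UMIs. In MRL/lpr 10 weeks the 12 rich barcodes held 30 UMIs of the secretory list and barcodes that were not co-detecting held 6749. These sums therefore could not show a change in few barcodes. The 15 secretory pathway genes all met the minimum. At 10 weeks 12 were lower in MRL/lpr and 3 higher, with a median log2 ratio of -0.46 against 0.00 over all genes. Only Derl3 was at least 2-fold lower, with 10 UMIs in MRL/lpr and 33 in C57BL/6, as were 4.02% of all genes. At 6 weeks the list lay the other way, with 10 higher in MRL/lpr, 2 of them at least 2-fold (3.79% of all genes), 5 lower, and a median of 0.20 against -0.07. Of 14 plasma cell regulators 7 met the minimum, 2 higher and 5 lower in MRL/lpr at 10 weeks, with a median of -0.10. None was 2-fold apart, where 5.74% of all genes were higher and 4.02% lower. Xbp1 had 629, 467, 476 and 652 UMIs, of which the 12 rich barcodes held 8, so its total came from other nuclei. Of 15 B cell genes 5 met the minimum, 1 higher and 4 lower in MRL/lpr at 10 weeks, with a median of -0.58 against 0.00. Ebf1, Ralgps2 and Blnk, left out where B cell genes were counted beside Ighm, were among the 5. Nothing about B cells is read from this direction. Cd79a, with 5, 11, 4 and 3 UMIs, and Ms4a1, with 4, 12, 8 and 6, did not meet the minimum.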

How the data were processed

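Single-nucleus 3' RNA libraries of female mouse kidney cortex, 1 per strain and age, were used as deposited. The deposited matrices hold raw UMI counts. The file headers name Cell Ranger 5.0.0, and version 3.1.0 stands in the submitters' processing notes. The build and the rule for calling barcodes were not stated. Of 25636 gene IDs 25585 are in GENCODE release M21. UMIs of the 6 genes were summed over all barcodes and scaled to CPM over all UMIs of a library, and no reads were analysed. The background was all genes that reached 50 UMIs in the 4 libraries summed, and a count of 0 was set at 3 UMIs. Ratios carry conditional exact binomial intervals, counts exact Poisson and shares Clopper-Pearson intervals, all at 95%. The functions were tested on simulated data. For classes, barcodes under 200 genes or over 10% mitochondrial UMIs were left out, Scrublet in scanpy 1.11.5 marked 701, 863, 427 and 751 doublets (in MRL/lpr 6 weeks, where its threshold marked none, at an expected rate of 0.8% per 1000 barcodes), and 35739 nuclei were clustered without immunoglobulin genes (3000 variable genes, 40 components, 15 neighbours, Leiden resolution 1). Classes took names from marker lists, and the immune class was led by macrophage genes. List genes with at least 10 UMIs could be named, as could the 10 genes with the highest ratio among those seen in at least 5 co-detecting barcodes of 2 or more libraries. The members, lists and rules were chosen with earlier results of these data known. Alternatives changed the denominator, the barcodes counted, the number of genes required, depth, clustering and the minimum.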

Additional observations from a re-analysis of the deposited data

Results flagged for a closer look

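For 2 genes the change from 6 to 10 weeks had opposite signs in the strains, which with 1 library per group is the sign of a single difference, and the difference between strains was not tested. Ighm was 0.124 CPM higher at 10 weeks in MRL/lpr and changed by -0.248 CPM in C57BL/6, both from 16 to 24 UMIs per library and within counting error. Iglc2 was 2.13 CPM higher at 10 weeks in MRL/lpr and changed by -0.438 CPM in C57BL/6, where it went from 3 UMIs to 0.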

How the results depend on the processing

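Of 129 alternative values none reversed a ratio whose interval excluded 1, 99 stayed within the interval reported (counts of genes within 1.5 times) and 30 moved beyond it. No paired analysis was possible because each group is 1 library and the labels carry no replicate number, and leaving out replicates was not possible for the same reason.

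With co-detecting barcodes left out, the strain ratio of Igkc at 6 weeks was 0.766 and that of Jchain at 10 weeks 1.52, and the age ratio was 19.1 for Igha and 1.11 for Jchain in MRL/lpr and 2.03 for Igha in C57BL/6. With the richest barcode of each library left out, the strain ratio of Igkc was 0.795 at 6 and 28.4 at 10 weeks, that of Igha at 10 weeks 21.2, and the age ratio of Igkc 40.3 in MRL/lpr and 1.13 in C57BL/6 and of Igha in C57BL/6 3.04. MRL/lpr 10 weeks then held 544 Igkc and 183 Igha UMIs, with 77.6% of the 6 genes' UMIs in co-detecting barcodes, and C57BL/6 10 weeks 12.9%.

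With quality-filtered barcodes, the strain ratios at 10 weeks were 5.85 for Igkc, 4.11 for Igha and 3.43 for Jchain, and the age ratios in MRL/lpr 13.1 for Igkc and 3.12 for Jchain. MRL/lpr 10 weeks then held 404 Igkc, 144 Igha and 52 Jchain UMIs, with 70.8% in co-detecting barcodes. Co-detecting barcodes of MRL/lpr 10 weeks numbered 13 with 3 or more genes, 13 with at least 2 UMIs of each of 2 genes, 13 without Igkc among the genes and 10 thinned to 300 UMIs. With a minimum of 10 UMIs instead of 50, genes at least 2-fold higher in MRL/lpr numbered 967 instead of 533 at 6 weeks and 1520 instead of 807 at 10 weeks. The age ratios and the share of UMIs were recomputed by choice after seeing the data. Depth limits the scattered UMIs, of which most classes held fewer than 10.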

Other observations

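Slpi was rare in every library, with 4, 9, 31 and 5 UMIs in MRL/lpr 6 weeks, C57BL/6 6 weeks, MRL/lpr 10 weeks and C57BL/6 10 weeks, and outside co-detecting barcodes it had 3, 9, 10 and 5, each in a different barcode. Among the other genes of the 12 rich barcodes, Trp53inp1, a stress-response gene, had 10 UMIs in 5 barcodes, 44.3 times its CPM elsewhere (21.01 to 82.9). Mef2c, a transcription factor of B cells and endothelium, had 7 UMIs in 6 barcodes (31.3, 12.5 to 65.4). Sec61a1, a subunit of the channel through which new proteins enter the endoplasmic reticulum, had 6 UMIs in 4 barcodes (15.2, 5.55 to 33.4), and Sel1l, a partner of the Derl proteins in degradation, 5 UMIs in 3 barcodes (11.1, 3.58 to 26.0). These 4 genes were named after their values were seen.

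Cd74, the invariant chain of MHC class II, had 4246, 1964, 4968 and 3082 UMIs in the same order, of which 72 lay in 12 co-detecting barcodes of MRL/lpr 10 weeks. Of the 12 variable segment UMIs of MRL/lpr 10 weeks 6 were of lambda segments, and 5 of these lay in co-detecting barcodes.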
